A study of Mus musculus with 22 samples.

Results

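Constant distal H3K27ac regions with H3K4me3 were stretches of the mouse genome that carried both marks at every time point examined but held no transcription start site (TSS) of the GENCODE annotation. They were chosen from ChIP-seq peak lists, so the values that chose them were the presence of peaks. The 10 H3K27ac lists were merged where they touch, and a region was kept if it had a peak in all 10 lists, held no TSS of any GENCODE M21 transcript, and overlapped by at least 1 bp a peak in all 10 H3K4me3 lists. This left 1335 of 24299 merged H3K27ac regions. Of these 24299, 13217 had a peak in all 10 H3K27ac lists and 4545 of those held no TSS.

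The cells were G1E-ER4 (called G1ER in the study), a line of mouse erythroid progenitors that lacks endogenous GATA1 and carries GATA1 fused to the ligand-binding part of the estrogen receptor (GATA1-ER). All groups shared this background and were grown with SCF and EPO; 10-7 M β-estradiol switches GATA1-ER on and starts erythroid differentiation. H3K27ac and H3K4me3 were profiled at 0, 2, 6, 12, and 24 h of β-estradiol with 2 replicates each, and CTCF at 0 h and 24 h with 1 list each. All lists come from a single line, and the study describes its replicates as independent experiments, so p-values cover the spread between experiments in this line.

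H3K27ac is laid down by the acetyltransferases CBP and its relative p300, and lies on active promoters and enhancers alike. H3K4me3 is laid down by the SET1 and MLL complexes and is densest at active promoters, above all at those with many CpG dinucleotides, whereas enhancers usually carry H3K4me1 instead. A distal region with H3K4me3 departs from this pattern. Such regions are seen at unannotated promoters, at genes of RNA polymerase III, and at some very active enhancers. Of the 4545 constant regions without a TSS, 1335 had H3K4me3 in all 10 lists, 1205 in 1 to 9, and 2005 in none.

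The lists held 12925 to 14452 H3K4me3 peaks, 17247 to 18333 H3K27ac peaks, and 33193 (0 h) and 41473 (24 h) CTCF peaks. No read counts came with them, so the depth is unknown, and a missing peak can mean few reads as well as little of the mark. As a check of the cell type, H3K4me3 peaks lay on a TSS of the erythroid genes Klf1, Epor, and Tfrc in 10 of 10 lists and of Gfi1b and Nfe2 in 9. No list had one on a TSS of Tal1 or of Gata1, the gene the line lacks, nor on any of 10 marker genes of other cell types. Tal1 is a gene erythroid progenitors are known to express, and whether the lists used here are complete at its locus is not known.

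Sequences from the reference (RefSeq, GRCm38.p6) show what kinds of DNA carried both marks. Each is 300 bases at the centre of the H3K4me3 core, which is made of the bases of the region covered in all 10 H3K4me3 lists. The H3K27ac core was formed in the same way from the H3K27ac lists. The length of a core counts all such bases, and its position and centre are those of its longest unbroken stretch. The region on chromosome 2 had an H3K4me3 core among the 6 widest of members whose merged H3K4me3 region held no TSS. Cbfa2t3 and Ank1 had the widest H3K27ac cores among members next to erythroid regulators and red cell membrane genes, and Sec61a1 is a CpG-rich member. Regions are named by the nearest protein-coding TSS within 50 kb, without a claim that they act on that gene. Capitals mark a GATA motif in the region on chromosome 2, the CTCF core letters AGNNGGCGC in Ank1, and every CpG in Sec61a1. The printed Cbfa2t3 window was searched for GATA motifs only and holds none. The window at the centre of its H3K27ac core, the kind used for the motif counts below, holds 1.

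region on chromosome 2, chr2:170221047-170221346, + strand: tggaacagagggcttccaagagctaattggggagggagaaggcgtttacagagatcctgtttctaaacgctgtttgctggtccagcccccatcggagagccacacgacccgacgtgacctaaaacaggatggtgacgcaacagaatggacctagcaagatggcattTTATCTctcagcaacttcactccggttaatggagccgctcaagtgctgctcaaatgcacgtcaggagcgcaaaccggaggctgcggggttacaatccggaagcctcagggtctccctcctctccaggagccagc
Cbfa2t3, chr8:122720050-122720349, + strand: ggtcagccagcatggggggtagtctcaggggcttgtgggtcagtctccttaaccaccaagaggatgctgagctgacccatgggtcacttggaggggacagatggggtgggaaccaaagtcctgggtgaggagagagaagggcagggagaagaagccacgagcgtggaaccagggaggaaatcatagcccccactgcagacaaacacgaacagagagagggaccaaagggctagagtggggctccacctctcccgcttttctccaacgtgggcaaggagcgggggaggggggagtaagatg
Ank1, chr8:23028063-23028362, + strand: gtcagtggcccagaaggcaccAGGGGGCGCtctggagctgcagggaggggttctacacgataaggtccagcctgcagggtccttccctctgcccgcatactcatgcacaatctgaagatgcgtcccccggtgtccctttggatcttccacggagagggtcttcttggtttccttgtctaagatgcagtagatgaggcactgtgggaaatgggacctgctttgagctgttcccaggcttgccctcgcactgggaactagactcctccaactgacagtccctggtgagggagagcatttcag
Sec61a1, chr6:88500101-88500400, + strand: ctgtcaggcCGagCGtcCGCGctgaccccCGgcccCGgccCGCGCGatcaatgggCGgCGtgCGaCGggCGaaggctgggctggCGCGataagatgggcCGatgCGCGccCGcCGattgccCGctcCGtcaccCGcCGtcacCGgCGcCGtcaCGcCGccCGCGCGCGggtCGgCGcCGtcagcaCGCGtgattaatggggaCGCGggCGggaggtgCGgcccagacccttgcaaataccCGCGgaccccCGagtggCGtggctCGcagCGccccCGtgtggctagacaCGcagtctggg

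The Sec61a1 window holds 51 CpG dinucleotides and has a GC content of 75.3%. Sec61a1 was chosen for printing after its values were seen.

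In 1321 of 1335 members the merged H3K4me3 region held no GENCODE TSS either, which the choice of regions without a TSS largely fixed. The other 14 members (1.05%) touched an H3K4me3 region with a TSS. The median distance to the nearest TSS of any transcript was 9094 bp and to the nearest protein-coding TSS 21051 bp. By comparison, the 2005 constant distal regions without any H3K4me3 lay at similar distances, with medians of 8953 bp and 21233 bp. There were 92 members with a TSS within 1 kb of an edge.

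Within the merged H3K27ac regions, the H3K4me3 core lay inside the H3K27ac core in most members, and H3K4me3 was the narrower mark. H3K4me3 beyond the edges of a region was not counted, so its width can be understated and its place inside H3K27ac overstated. The median member was 2619 bp long, with an H3K27ac core of 1490 bp and an H3K4me3 core of 932 bp. The H3K4me3 core lay entirely inside the H3K27ac core in 769 of the 1320 members that had both (58.3%), and the centres of the cores were a median of 118 bp apart. H3K4me3 covered a median of 54.7% of a member and was the wider mark in 289 members (21.6%). In the 8159 constant regions with a TSS and H3K4me3 in all lists, it covered a median of 80.1%, with a core of 2161 bp. The peak scores followed the same order. Within its own list, the best H3K4me3 peak of a member ranked at a median percentile of 27.7, against 69.3 in regions with a TSS. For H3K27ac the percentiles were 52.4 and 75.7, and 35.4 in distal regions without H3K4me3.

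**Figure D1:**
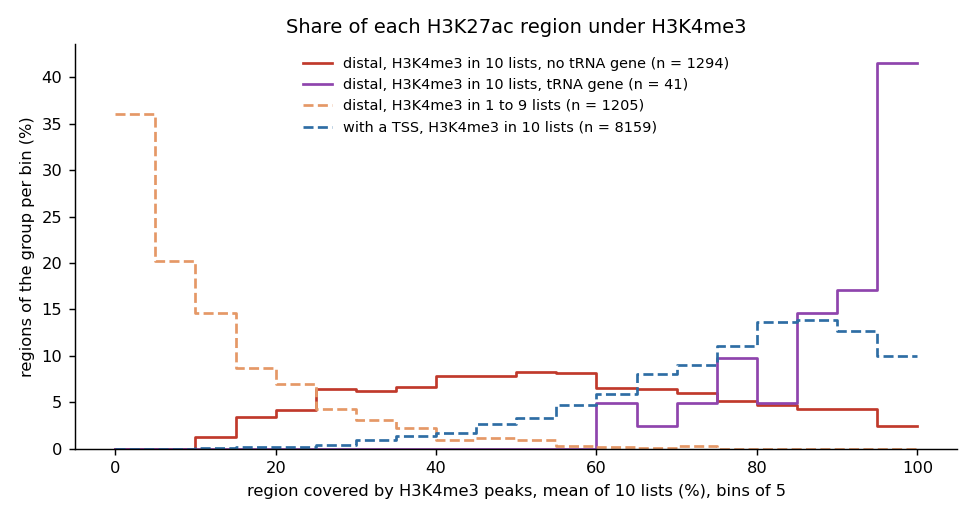
Percent of each H3K27ac region covered by H3K4me3 peaks (mean of 10 lists, bins of 5) against the percent of the group in each bin, for members without (n = 1294) and with (n = 41) a tRNA gene and for 2 other groups of constant regions. Members without a tRNA gene spread over the whole range above 10%, whereas members with one lay above 60%, near the upper end.

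The rule drew a line through a range of H3K4me3 coverage. Another 135 constant distal regions had H3K4me3 in 9 of 10 lists, with a median of 814 bp covered on average over lists, against 1308 bp in members. The missing list was most often replicate 1 at 24 h (38 regions). Replicate 2 at 24 h was missing in 23 and replicate 2 at 6 h in 21. Replicate 2 at 0 h was never the missing one. Of the 10 H3K4me3 lists, replicate 1 at 24 h held the fewest peaks (12925) and replicate 2 at 0 h the most (14452). Whether the size of the lists set this pattern was not tested. Another 107 distal regions had H3K4me3 in all 10 lists but H3K27ac in only 9, with a median of 897 bp of H3K27ac against 2073 bp in members. The smallest member by H3K4me3 had 356 bp covered on average, and the largest 4769 bp.

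Members were found between genes more often than in introns. The centre of the H3K27ac core was intergenic in 796 members (59.6%), intronic in 468 (35.1%), and in a UTR, coding exon, or noncoding exon in 29, 24, and 18. Constant distal regions without H3K4me3 showed the opposite order, with 34.0% intergenic and 60.3% intronic. RefSeq, with predicted transcripts counted, placed a transcript start in 155 members (11.6%), but a curated one in only 29 (2.17%). For distal regions without H3K4me3 these shares were 4.79% and 0.299%.

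In base composition, members lay between distal regions without H3K4me3 and regions with a TSS. A 500 bp window at the centre of the H3K27ac core was called CpG-rich when its GC content was at least 50% and its ratio of observed to expected CpG at least 0.6. This held for 200 members (15.0%), for 0 of 2005 distal regions without H3K4me3, for 9 of 1205 with H3K4me3 in 1 to 9 lists (0.747%), and for 67.4% of regions with a TSS. CpG-rich members were short, with a median length of 1881 bp, and H3K4me3 covered a median of 78.7% of them, against 50.8% of the 1135 others. The median ratio of observed to expected CpG was 0.372 in members, 0.183 in distal regions without H3K4me3, and 0.752 in regions with a TSS. These shares are descriptions, and no difference between groups was tested.

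Motif letters followed the same order. The GATA motif, is bound by GATA1 and GATA2. It was read on either strand as AGATAA or AGATAG. The forms with T as the first letter, TGATAA as well as TGATAG, also counted. A GATA motif was present in the window of 768 members (57.5%), against 76.4% of distal regions without H3K4me3, 30.1% of regions with a TSS, and 45.4% of all 13217 constant regions. The KLF letters CCACACCC or CCNCNCCC, which overlap each other and are common in GC-rich DNA, were in 50.5% of members, 38.1% of distal regions without H3K4me3, and 60.9% of all constant regions. The ETS letters CCGGAA were in 12.8%, 5.64%, and 23.6% of the same 3 groups. Among members, 44 of the 200 CpG-rich members (22.0%) and 63.8% of the others held a GATA motif. A match is only a match of letters, and says nothing of binding.

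**Figure D2:**
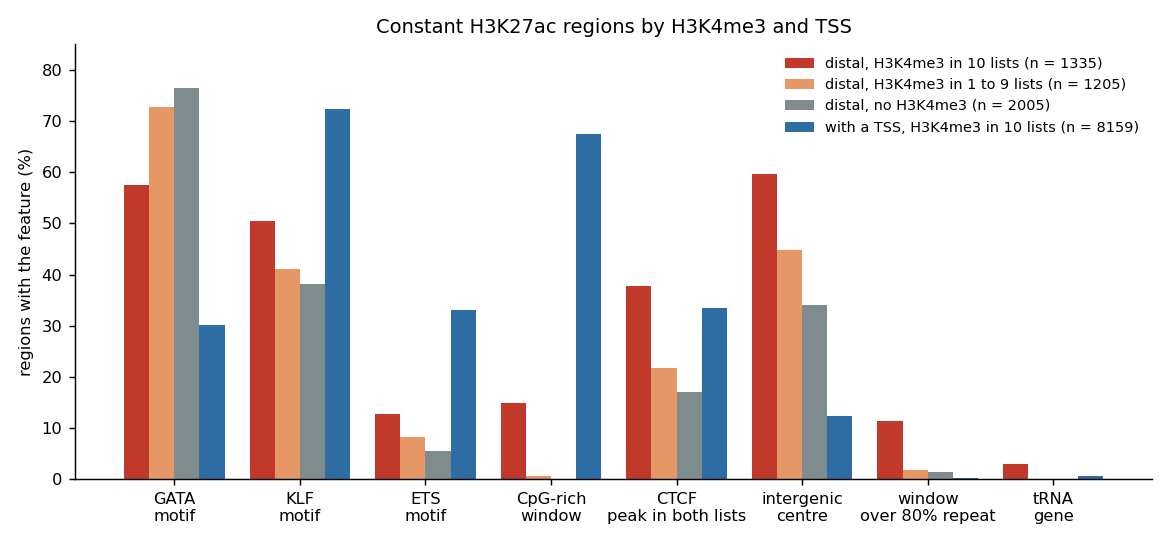
Percent of regions with each feature in 4 groups of constant H3K27ac regions, as bars from 0. Members (red) lay between distal regions without H3K4me3 (grey) and regions with a TSS (blue) for GATA, KLF, and ETS motifs and CpG-richness, and were above all 3 other groups for CTCF peaks in both lists, intergenic position, repeats, and tRNA genes.

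CTCF, a DNA-binding protein found at the anchors of chromatin loops, was the readout that the rule did not use. A CTCF peak overlapped 521 members at 0 h (39.0%), 580 at 24 h (43.4%), and 503 in both lists (37.7%). The shares in both lists were 17.1% in distal regions without H3K4me3, 21.7% in those with H3K4me3 in 1 to 9 lists, and 33.4% in regions with a TSS. In the 24 h list, regions with a TSS had a CTCF peak in 44.3%, slightly more than members. Only 18 members had CTCF at 0 h alone and 77 at 24 h alone, and the 24 h list was the longer one. The centre of a CTCF peak lay within the H3K4me3 core in 342 of the 521 members with CTCF at 0 h (65.6%) and in 375 of 580 at 24 h (64.7%). The CTCF core letters AGNNGGCGC, chosen after the sequences were seen, were in the window of 55 of 503 members with CTCF in both lists (10.9%), in 23 of 737 with none (3.12%), and in 11.4% of all constant regions. With 1 CTCF list per time point there was no replicate check.

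The 3 members with the highest CTCF ranks were a region on chromosome 12 (chr12:3109428-3110265, 199704 bp from Rab10), one 36936 bp downstream of Rpusd4 (chr9:35304801-35306099), and one 24191 bp downstream of Ly6c2 (chr15:75085073-75087506). All 3 ranked at percentile 99.7 or above in both histone marks as well. Repeats made up 67.8%, 79.2%, and 55.8% of their windows. In total, 4 members were above percentile 99 in both histone marks, and these 4 were also above it in both CTCF lists. Whether their scores reflect binding was not tested. No list of problematic genomic regions was used, so neither these nor the other members were checked against one. Among the fixed gene lists, CTCF ranked highest at Ank1, at percentile 98.8 at 0 h and 99.2 at 24 h, and this is the region whose printed sequence holds the CTCF core letters.

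A small set of members held tRNA genes, which RNA polymerase III transcribes from promoter elements inside the gene. RefSeq lists 403 of them, and 78 lay in 41 members (3.07%). The GENCODE set that defined distal regions holds 0 genes of this type, so their starts were not counted as TSS. No tRNA gene lay in the 2005 distal regions without H3K4me3 or in the 1205 with H3K4me3 in 1 to 9 lists. At least 1 lay in 48 regions with a TSS (0.588%), which held 75 of the 403 genes. The genes in members were of 18 kinds, led by leucine (10 genes) and by glycine, lysine, and proline (7 each). Of the 41 members with a tRNA gene, 12 were on chromosome 13 and 8 on chromosome 11, and 18 held a single gene. The spread of all 403 tRNA genes over chromosomes was not compared. The tRNA genes were looked for after the widest H3K4me3 core had been seen to hold one.

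H3K4me3 was broad at the tRNA members. It covered a median of 91.7% of the region (lowest 63.5%), against 53.8% in the 1294 other members, and its median core was 1863 bp against 913 bp. The median H3K4me3 percentile was 49.7 against 27.4. Of the 100 widest H3K4me3 cores, 18 were in tRNA members. The median covered length of H3K4me3 over the 41 members was 2012 and 2098 bp in the lists at 0 h, against 2103 and 2078 bp at 24 h. For H3K27ac it was 1805 and 1739 bp at 0 h, against 1998 and 1978 bp at 24 h. None of the 41 passed the test for either mark described below, where 6.32% (H3K27ac) and 1.94% (H3K4me3) of all regions tested did. An unadjusted p under 0.05 (limma) was found in 3 (H3K27ac) and 2 (H3K4me3), against 4444 of 21011 and 1646 of 13255 regions. With H3K4me3 already over most of each region, it had little room to lengthen inside it, and the absence of calls is not read as stability.

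The widest H3K4me3 core of all members was at Hfe2, which encodes the iron regulator hemojuvelin. The region (chr3:96499162-96503706, 21466 bp upstream of Hfe2) holds 4 tRNA genes, and its H3K4me3 core was 4319 bp, 98.2% of the region being covered on average. H3K4me3 covered 4429 and 4545 bp at 0 h, against 4381 and 4545 bp at 24 h, and H3K27ac 4398 and 4410 bp at 0 h, against 4390 and 4405 bp at 24 h. The lists at 0 h and 24 h thus spanned nearly the same length inside the region. The region is 4545 bp long, which is the most that could be counted, so longer H3K4me3 could not be seen here. Ranks after it are among members whose merged H3K4me3 region held no TSS. The next was an intergenic region on chromosome 2 (chr2:170217299-170224086, 74621 bp upstream of Zfp217), with an H3K4me3 core of 4109 bp and a CpG ratio of 0.726. H3K4me3 covered 4764 and 4222 bp of it at 0 h, against 4692 and 4595 bp at 24 h.

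The other members named for wide H3K4me3 cores held no tRNA gene. They lay 36559 bp downstream of Lonrf1 (core of 4043 bp), 4761 bp upstream of Smoc1 (3930 bp), 193556 bp from the nearest gene Stard3nl on chromosome 13 (3875 bp), and in an intron of Sipa1l1 (3560 bp). The region at Lonrf1 holds a RefSeq transcript start. The window of the chromosome 13 region (chr13:19196204-19202178) was 99.2% repeat. H3K4me3 at these 4 did not pass the test between 0 h and 24 h, with adjusted p from 0.357 to 0.944 (limma).

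Repeats were common in members. The central window was over 80% soft-masked repeat in 153 members (11.5%), against 1.4% of distal regions without H3K4me3, 1.74% of those with H3K4me3 in 1 to 9 lists, and 0.221% of regions with a TSS. Many of these windows were near-copies of each other. Regions were grouped when blastn aligned at least 300 of 500 bases at 80% identity or more, and 206 members (15.4%) fell in a group, against 22 of the 2005 distal regions without H3K4me3 (1.1%). The 3 largest families held 56, 43, and 26 members, and 120 of the 153 repeat-rich members were in them. The families were defined by sequence alone, but they were looked for after the repeat share had been seen.

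Pairs of copies from the first and the second family are printed to show how alike they are, with the GATA motif in capitals and each copy in the orientation of the first. Both pairs match at 60 of 60 bases, although the copies lie on different chromosomes.

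family 1, copy 1, chr17:14076452-14076511, + strand: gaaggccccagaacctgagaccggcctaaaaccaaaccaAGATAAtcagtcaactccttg
family 1, copy 2, chr8:72226166-72226225, - strand: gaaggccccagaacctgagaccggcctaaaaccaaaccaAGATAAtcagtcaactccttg
family 2, copy 1, chr7:18698458-18698517, + strand: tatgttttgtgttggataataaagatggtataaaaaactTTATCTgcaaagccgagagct
family 2, copy 2, chrY:58550593-58550652, - strand: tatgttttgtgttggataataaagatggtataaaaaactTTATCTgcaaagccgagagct

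Family 1 spanned 19 chromosomes, with 5 members on Y and 6 on X, and its aligned pairs were at least 86.1% identical (median 98.0%). Of its 56 members 47 held a GATA motif (83.9%) and 0 were CpG-rich. At the same cutoffs, 8 distal regions with H3K4me3 in 1 to 9 lists and 1 without H3K4me3 belonged to it. Family 2 had 32 of 43 members with a GATA motif, and H3K4me3 covered a median of 82.0% of a member. Family 3 was of another kind. All 26 of its members were CpG-rich, with a median CpG ratio of 1.02, 0 held a GATA motif, and H3K4me3 covered a median of 91.9%. CTCF overlapped 0 members of families 2 and 3 in either list. Only uniquely mapped reads entered the peak lists, and how many reads of such copies were left out was not tested.

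The next question was whether the covered length of either mark differed between 24 h and 0 h. Covered length is the number of bases of a region under peaks in 1 list, and it was tested as log2(covered bp + 200) with limma over every merged H3K27ac region that 2 or more lists of the mark touched, at a Benjamini-Hochberg adjusted p of 0.05. Differences of this kind understate the change in short regions. Since the rule asked for a peak in every list, it bounded how far a member could change. Covered length also cannot exceed the length of the region, so H3K4me3 could not be seen to lengthen past its edges. The counts below are given beside those of all regions, with nothing read from their difference.

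H3K27ac was longer at 24 h in 25 members and shorter in 29, together 54 of 1335 (4.04%), where 6.32% of the 21011 regions tested were called (3.30% longer and 3.02% shorter). The median difference was 0.01 in members and 0.01 in all regions. With covered lengths scaled by the median peak length of each list the split became 20 longer and 46 shorter. The split also turned with single lists. It was 18 longer and 10 shorter (28) without replicate 1 at 0 h, 17 and 15 (32) without replicate 2 at 0 h, 12 and 28 (40) without replicate 1 at 24 h, and 13 and 15 (28) without replicate 2 at 24 h. H3K4me3 was longer in 3 members and shorter in 14, together 17 (1.27%), where 1.94% of 13255 regions were called (0.505% longer and 1.43% shorter). The median difference was -0.07 in members and -0.02 in all regions. The count was 3 without either replicate at 0 h, 8 without replicate 1 at 24 h, 10 without either replicate at 6 h, and 28 after scaling by median peak length.

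**Figure D3:**
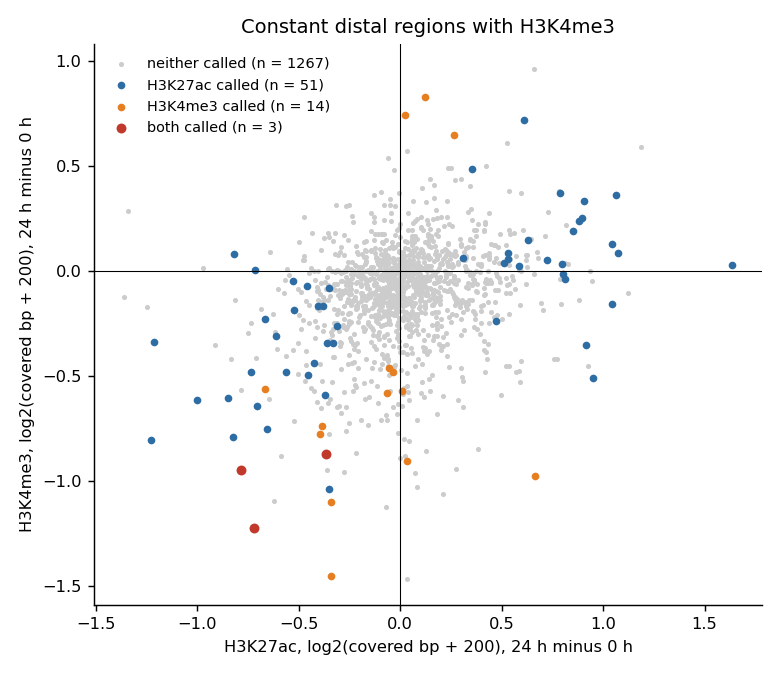
Difference of H3K27ac (x axis) against H3K4me3 (y axis) covered length at 24 h minus 0 h, as log2(covered bp + 200), for 1335 members, coloured by the mark whose adjusted p passed 0.05. The 3 members called in both marks lie in the lower left quadrant, 51 were called for H3K27ac alone and 14 for H3K4me3 alone.

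For both marks 3 members passed, and in all 3 both marks were shorter at 24 h. The region 9499 bp upstream of Dusp12, a dual-specificity phosphatase gene, is intergenic (chr1:170895039-170902088). Its H3K27ac peaks covered 6986 and 6544 bp at 0 h, then 6836 and 6874 bp at 12 h, and 4043 and 4023 bp at 24 h (log2 difference -0.72, SE 0.06, adjusted p = 0.00106). Its H3K4me3 peaks covered 2777 and 2977 bp at 0 h, then 2414 and 2623 bp at 12 h, and 1056 and 1176 bp at 24 h (-1.23, SE 0.11, adjusted p = 0.0049). For both marks the lists at 24 h lay below the 8 lists of all earlier times.

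The region 32777 bp downstream of Tmem64 (chr4:15298608-15304105) had the smallest H3K27ac difference of the 3. H3K27ac covered 5188 and 4831 bp at 0 h, against 3935 and 3764 bp at 24 h (-0.36, SE 0.07, adjusted p = 0.0307), and H3K4me3 2732 and 2890 bp at 0 h, against 1224 and 1694 bp at 24 h (-0.87, SE 0.14, adjusted p = 0.0353).

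Among called members, the largest H3K4me3 decrease was in a long region 9071 bp downstream of Fam213a, a peroxiredoxin-like gene (chr14:40986828-40995462, 8635 bp). H3K4me3 covered 3603 and 3722 bp at 0 h, then 3768 and 3523 bp at 2 h, then 3587 and 3754 bp at 6 h, then 3294 and 3206 bp at 12 h, and 1008 and 1443 bp at 24 h (-1.45, SE 0.13, adjusted p = 0.00526). Both lists at 12 h thus lay above both at 24 h. H3K27ac covered 7476 and 7277 bp at 0 h, against 5509 and 6092 bp at 24 h and did not pass (-0.34, SE 0.11, adjusted p = 0.134). A CTCF peak was listed here at 0 h but not at 24 h. It ranked low, at percentile 13.4 of its list, and with 1 CTCF list per time point its absence at 24 h had no replicate check. At Dcun1d4, whose product takes part in neddylation, H3K4me3 covered 2195 and 2556 bp at 0 h, against 1169 and 849 bp at 24 h (-1.1, SE 0.16, adjusted p = 0.0267).

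For longer H3K4me3 at 24 h, 3 members passed the test. In an intron of Cep164, which encodes a protein of the centriole (chr9:45785350-45790617), H3K4me3 covered 1141 and 1190 bp at 0 h, then 1347 and 1539 bp at 12 h, and 2348 and 2103 bp at 24 h (0.83, SE 0.09, adjusted p = 0.00989). Its H3K27ac covered 4539 and 3955 bp at 0 h, against 4860 and 4406 bp at 24 h, with overlapping lists. In an intron of the palmitoyltransferase gene Zdhhc19 (chr16:32506824-32514335), H3K4me3 covered 1285 and 1409 bp at 0 h, against 2665 and 2127 bp at 24 h (0.74, SE 0.11, adjusted p = 0.0254). Upstream of Egfl7, which encodes a secreted endothelial protein, by 1865 bp (chr2:26574097-26578149), it covered 1658 and 1606 bp at 0 h, against 2531 and 2817 bp at 24 h (0.65, SE 0.06, adjusted p = 0.00595). At all 3 the lists at 24 h lay above all 8 earlier lists.

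For H3K27ac, the largest increases among called members were at Gm6592, Sec61a1, and Ankrd12. At the intergenic region 8048 bp downstream of the predicted gene Gm6592 on X (chrX:8852042-8854444), H3K27ac covered 509 and 575 bp at 0 h, against 2172 and 2037 bp at 24 h (1.64, SE 0.27, adjusted p = 0.0147), whereas H3K4me3 covered 1708 and 1770 bp at 0 h, against 1713 and 1842 bp at 24 h. The CpG-rich region 17447 bp downstream of Sec61a1, a subunit of the protein translocon, had 1012 and 962 bp at 0 h, against 2467 and 2137 bp at 24 h (1.07, SE 0.22, adjusted p = 0.0412). The region in an intron of Ankrd12 (chr17:66014146-66020876) was 97.8% repeat and belonged to family 1. Its H3K27ac covered 2751 and 3351 bp at 0 h, against 6652 and 6505 bp at 24 h (1.07, SE 0.2, adjusted p = 0.0247).

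The largest H3K27ac decreases among called members were at Gyg, Alkbh8, and an intron of Atrnl1. The region 41676 bp upstream of Gyg (glycogenin, which primes glycogen synthesis; chr3:20196993-20200383) had CTCF peaks at percentiles 96.9 and 98.6. H3K27ac covered 3341 and 3298 bp at 0 h, then 1891 and 2021 bp at 2 h, and 1395 and 1218 bp at 24 h (-1.23, SE 0.18, adjusted p = 0.00892). Both lists at 2 h were thus already below those at 0 h. The decrease was not steady, with 2843 and 2044 bp at 6 h and 1717 and 2295 bp at 12 h. Upstream of Alkbh8, a tRNA-modifying enzyme (chr9:3325853-3332027), it covered 6063 and 4040 bp at 0 h, against 1870 and 2193 bp at 24 h (-1.21, SE 0.2, adjusted p = 0.0139). In the intron of Atrnl1 (chr19:57926447-57929357) it covered 2126 and 2382 bp at 0 h, against 1151 and 912 bp at 24 h (-1.0, SE 0.17, adjusted p = 0.019).

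**Figure D4:**
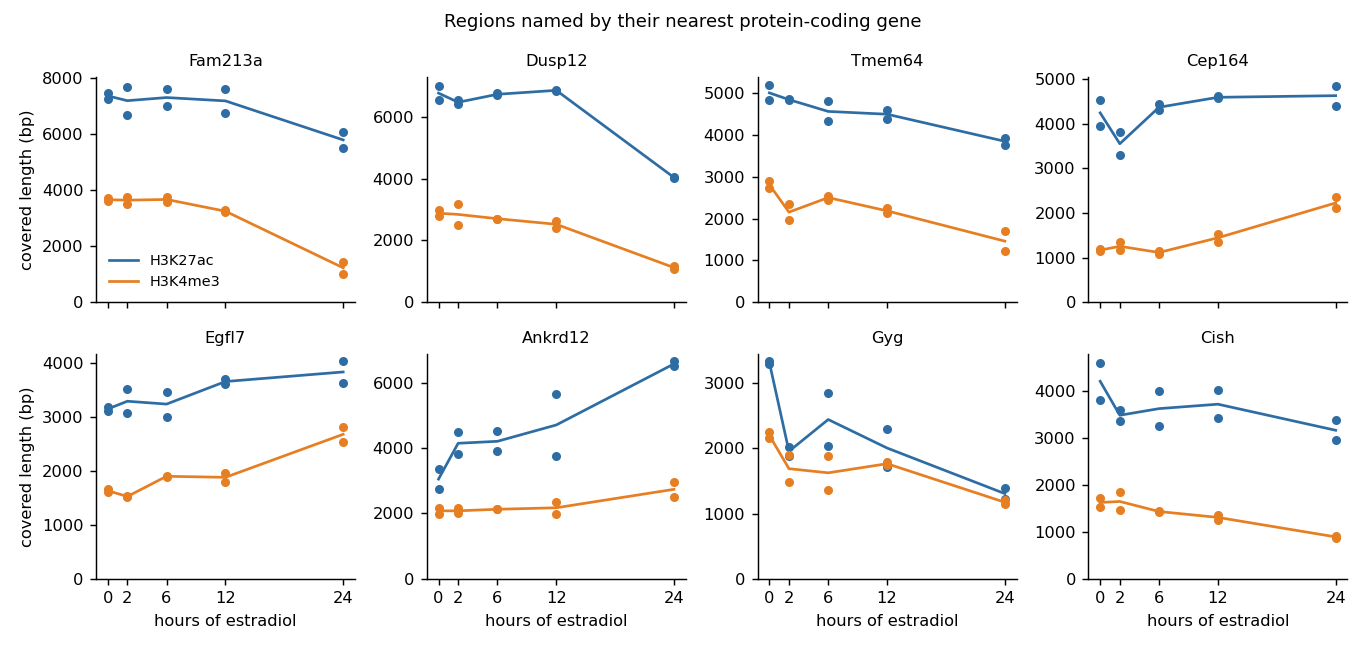
Covered length of H3K27ac (blue) and H3K4me3 (orange) in each list (points, 2 per time point) and its mean (lines) against hours of β-estradiol for 8 named members. At Fam213a, Dusp12, and Cish the last time point is the lowest for H3K4me3, and at Cep164 and Egfl7 it is the highest.

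Each of these calls kept its direction under the 17 alternatives applied to single regions, which was largely fixed in advance. In every called member both lists at 24 h lay on the same side of both at 0 h. Leaving out a list could therefore not turn the direction, and nothing is read from it. Few calls kept their significance in all alternatives. Of 10 H3K27ac calls at named members, 2 passed in all 17, among them that at Dusp12. Of the 10, 7 were lost without replicate 1 at 0 h, 7 without replicate 2 at 0 h, 6 without replicate 1 at 24 h, and 7 without replicate 2 at 24 h. Of 9 H3K4me3 calls, only that at Dusp12 passed in all 17, and 6, 7, 5, and 3 were lost without the same lists of that mark. Among members described above or below, the adjusted p rose as far as 0.177 at Cd44, 0.164 at Sec61a1, and 0.147 at Alkbh8 for H3K27ac, and 0.216 at Tmem64, 0.188 at Zdhhc19, and 0.164 at Dcun1d4 for H3K4me3 (limma).

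All H3K27ac calls in family 1 of the near-copies went in the same direction. Of its 56 members, 7 had longer and 0 shorter H3K27ac at 24 h, and 55 had a difference above 0, with a median of 0.36. Over all regions tested, 3.30% were longer and 3.02% shorter, with a median difference of 0.01. The 1210 members outside the 3 families had 17 longer and 29 shorter, with a median of 0.0. The median H3K27ac length of family 1 was 1960.5 and 2225 bp at 0 h, then 2260 and 2297.5 bp at 2 h, then 2238.5 and 2400.5 bp at 6 h, then 2500 and 2567.5 bp at 12 h, and 2502.5 and 2444.5 bp at 24 h. Both lists at 24 h lay above both at 0 h. For H3K4me3 the family had 0 calls and a median difference of 0.08, where 1.94% of all regions were called. The number of longer calls was 4 without replicate 2 at 24 h, from 5 to 10 without any other list, and 6 after scaling, and it was 0 for shorter in each. Whether family 1 differed from the other members was not tested. Its members share their sequence, so they are not independent of each other.

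**Figure D5:**
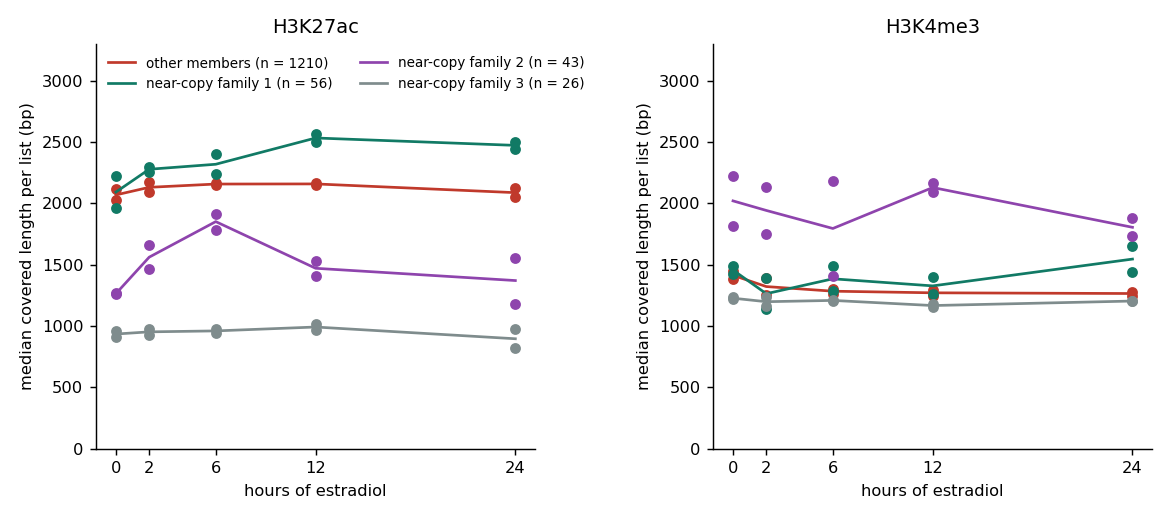
Median covered length per list (points, 2 per time point; lines join their means) of H3K27ac (left) and H3K4me3 (right) against hours of β-estradiol for the 3 largest near-copy families and the 1210 other members. H3K27ac of family 1 was higher at 12 h and 24 h than at 0 h, whereas that of the other members stayed between 2024.5 and 2171 bp.

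Repeat-rich members as a whole had 9 longer and 1 shorter H3K27ac calls of 153, and the 1182 others 16 longer and 28 shorter, where 3.30% of all regions were longer and 3.02% shorter. Of the 25 members with longer H3K27ac, 19 held a GATA motif and 10 had CTCF in both lists, while 9 were repeat-rich and 7 belonged to family 1, in which 83.9% held a GATA motif. Of the 29 with shorter H3K27ac, 14 held a GATA motif, 10 had CTCF in both lists, and 22 were intergenic. Over all members, 57.5% held a GATA motif, 37.7% had CTCF in both lists, and 59.6% were intergenic. CpG-rich members had 1 longer call and 0 shorter for H3K27ac and 0 calls for H3K4me3 (limma), where 1.94% of all regions were called for H3K4me3. An unadjusted p under 0.05 (limma) was found in 18 and 11 of 200, against 4444 of 21011 and 1646 of 13255 regions.

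Some members lay next to genes of the erythroid program, and whether they were more or fewer than for other genes was not tested. A protein-coding TSS was within 50 kb of 956 members, which touched 896 genes. Of 33 transcription factors of erythroid cells and progenitors, 3 were the nearest gene of 4 members (Cbfa2t3, Tal1, and Etv6). Of 32 globin, heme, and iron genes, 3 had a member (Slc11a2, Aco1, and Hmox1), and of 34 genes of the red cell membrane, signalling, and survival, 8 had 9 members (Ank1, Btg2, Ccnd3, Cd44, Cd47, Cish, Jak2, and Slc4a1). None of 28 mast cell, megakaryocyte, and progenitor genes had one. By comparison, distal regions without H3K4me3 lay next to 7, 2, 8, and 5 genes of these lists. The lists were chosen with earlier results of these data known. Of the 16 members on the lists, 1 passed for H3K27ac and 1 for H3K4me3, where 6.32% and 1.94% of all regions did.

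Among transcription factors, the member 17746 bp upstream of Cbfa2t3, a corepressor that binds TAL1 (chr8:122716855-122722183), had 3634 and 3654 bp of H3K27ac at 0 h and 4933 and 4457 bp at 24 h, with both lists at 24 h above both at 0 h, but did not pass (0.35, SE 0.1, adjusted p = 0.105). The member 4984 bp upstream of Tal1, a master regulator of blood formation (chr4:115047040-115051442), had 3362 and 3231 bp at 0 h, against 3479 and 3205 bp at 24 h. Its H3K4me3 covered 1275 and 1605 bp at 0 h, against 995 and 831 bp at 24 h (-0.56, SE 0.2, adjusted p = 0.328). One of the 2 members at Etv6, an ETS-family repressor, had a window made wholly of repeat and belonged to family 2.

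Among heme and iron genes, the member at Slc11a2, the iron importer DMT1 (chr15:100441825-100446418), had no base covered by H3K4me3 in all 10 lists, although each list had a peak. H3K4me3 covered 1917 and 1759 bp at 0 h, against 1672 and 521 bp at 24 h (-0.81, SE 0.47, adjusted p = 0.595), so that the replicates at 24 h lay far apart. In an intron of Aco1, which encodes an iron regulatory protein (chr4:40177532-40180457), H3K4me3 covered 1666 and 1214 bp at 0 h, against 1067 and 1578 bp at 24 h, so the lists overlapped. At the heme oxygenase gene Hmox1, 8205 bp upstream (chr8:75083073-75085416), H3K27ac covered 2187 and 1901 bp at 0 h, against 1158 and 1377 bp at 24 h without passing (-0.61, SE 0.29, adjusted p = 0.302).

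Among membrane and signalling genes, the member in an intron of Ank1 (chr8:23026658-23032202), which anchors the membrane skeleton, had an H3K27ac core of 4097 bp and covered lengths of 4640 and 4097 bp at 0 h, against 4912 and 5411 bp at 24 h (0.23, SE 0.08, adjusted p = 0.176). At Cd44, a hyaluronan receptor of progenitors, H3K27ac in an intron (chr2:102865602-102870117) was shorter at 24 h, with 4499 and 4328 bp at 0 h, against 3384 and 3461 bp at 24 h (-0.35, SE 0.07, adjusted p = 0.0449), and this call was lost in 11 of 17 alternatives, among them leaving out any 1 list at 0, 6, 12, or 24 h. At Cish, a feedback inhibitor of cytokine signalling, H3K4me3 (chr9:107310794-107315389) was shorter, with 1526 and 1719 bp at 0 h, against 866 and 915 bp at 24 h (-0.74, SE 0.11, adjusted p = 0.0261), and it was lost in 8 of 17, with adjusted p up to 0.156.

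The remaining list members did not pass for either mark. At Jak2, the kinase of the erythropoietin receptor, H3K27ac covered 4457 and 4180 bp at 0 h, against 2546 and 2420 bp at 24 h (-0.75, SE 0.19, adjusted p = 0.0805). At Slc4a1, the anion exchanger band 3, the member lay in an intron of the noncoding gene Bloodlinc (chr11:102374766-102376996) and had 1673 and 1133 bp at 0 h, against 2231 and 2037 bp at 24 h (0.56, SE 0.23, adjusted p = 0.222). The member in an intron of Ccnd3, a cyclin that sets the number of divisions in erythroblasts, had 3447 and 4215 bp at 0 h, against 4605 and 4870 bp at 24 h (0.3, SE 0.11, adjusted p = 0.177). At Jak2 the lists at 24 h lay below, and at Slc4a1 and Ccnd3 above, those at 0 h. One of the 2 members at Cd47, a surface protein that protects red cells from phagocytosis, had 4854 and 5140 bp at 0 h, against 5792 and 3753 bp at 24 h. The CpG-rich member at the antiproliferative gene Btg2 had 2144 and 1766 bp at 0 h, against 2619 and 2395 bp at 24 h (0.33, SE 0.12, adjusted p = 0.161).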

How the data were processed

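ChIP-seq peak lists of H3K27ac, H3K4me3, and CTCF (22 in all) were used as deposited. The authors aligned reads to mm10 with Bowtie2, kept uniquely mapped reads, and called histone peaks with MACS without its model step. Its version, control, and threshold, and the CTCF settings, are not given in the sources used here. The score the authors deposited for each peak served for ranks and 1 filter. Read depth, and the precision it gives, is unknown.

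Regions were compared with GENCODE M21 and RefSeq GRCm38.p6 (Python 3.11.15, numpy 2.4.6, pandas 2.3.3, pysam 0.24.0, blastn 2.17.0). Differences between 24 h and 0 h were tested with limma 3.58.1 in R 4.3.3 (trend, a mean per time point, all 10 lists of a mark), adjusted over all regions tested, and the step was tested on simulated data. Peak lengths need not follow the normal errors of that model. Members named were the 3 with the largest called difference per mark and direction, and the 3 highest CTCF ranks. Also named were the 3 widest H3K27ac cores per gene list. The 6 widest H3K4me3 cores were named among members whose merged H3K4me3 region held no TSS. Other list members, members called in both marks, and the tRNA and near-copy sets were added after their values were seen. Members and lists were chosen with earlier results of these data known. Alternatives covered merging, score, overlap, TSS type, windows, pseudocounts, scaling, minimum lists, a replicate block, and leaving out each list. For 1 member called in both marks, and for 1 sequence, the result is not reported here.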

Additional observations from a re-analysis of the deposited data

How the results depend on the processing

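The number of members was 71 with only the peaks whose score reached the median pooled over lists and 514 when H3K4me3 had to cover at least 50% of the region in each list. The number of constant distal H3K27ac regions with H3K4me3 ranged from 1335 to 1373 when each list was left out in turn. Since leaving out a list loosens the rule, this number could hardly fall. With the higher-scoring peaks the share of members whose H3K4me3 region holds a TSS was 0.0%. Then 0 of 71 members were called for H3K27ac and 0 for H3K4me3 (limma), with 5 and 4 at an unadjusted p under 0.05. Over all regions of that setting, 405 of 10273 and 80 of 7125 were called. The share with CTCF in both lists was 27.9% with CTCF peaks at or above the median score of their list. The share of members with a GATA motif was 83.1% in windows of 1 kb. The share of CpG-rich members was 11.8% in windows of 1 kb and 17.9% at the centre of the H3K4me3 core. The median distance was 21051 bp to protein-coding TSS only. Calls ranged from 28 to 54 for H3K27ac and from 3 to 22 for H3K4me3 when each list was left out, and 28 members were called for H3K4me3 after scaling by median peak length. Replicate numbers did not pair the lists, as same-numbered lists correlated at -0.03 to 0.02 (H3K27ac) and -0.13 to 0.05 (H3K4me3) in their deviations. With the replicate block, 38 and 11 members were called. The other 57 alternatives to these results stayed within 1.5 times or within the 95% interval. The cause of these shifts was not tested.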

Other observations

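Other letters were less frequent in members than in distal regions without H3K4me3. RUNX letters (TGTGGT) were in the window of 31.2% of members, against 39.0% of distal regions without H3K4me3, E-box letters (CAGCTG or CAGATG) in 43.0% against 51.6%, TATA letters (TATAAA) in 21.8% against 28.9%, and AP-1 letters (TGANTCA) in 13.9% against 17.8%. In regions with a TSS these shares were 18.9%, 37.1%, 9.2%, and 6.97%. Members were on every chromosome, from 8 on Y and 32 on 18 to 104 on 2. Lzts1, Tex44, and Tex50 each had 3 members for which they were the nearest protein-coding gene within 50 kb, and no gene had more.

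The next family of near-copies by size held 9 members on 4 chromosomes. All 9 had a GATA motif and a window over 80% repeat, and 8 had H3K27ac differences above 0, with a median of 0.17 and 0 calls (limma). Over all regions tested, 6.32% were called for H3K27ac. At a cutoff of 90% identity family 1 held 55 members, and with at least 400 aligned bases it held 49.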
